A study of Mus musculus with 12 samples.

Results

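The enzymes of oxidative phosphorylation were followed through the nuclear genes of their subunits, in RNA of peritoneal macrophages, which are tissue phagocytes. Members were the genes whose mouse symbol starts with Nduf (Ndufaf, which names assembly factors, was left out), Uqcr, Atp5 or Cox4 to Cox8. Of the 24562 genes in the count table, 82 had such a symbol, and 73 of these reached a mean of 10 counts over the 12 libraries and are described here. They comprise 35 genes of complex I, 8 of complex III, 13 of complex IV, 16 of ATP synthase (complex V) and Ndufs5-ps, a transcribed pseudogene that belongs to no complex. Ndufa4 was placed in complex IV, where its protein is now known to sit. The symbol rule used no measured difference, and all 73 members passed the filter on low counts and were among the 12641 genes tested.

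The macrophages came from female mice and form 4 groups of 3 libraries: high fat diet (HFD) with 24 h of lipopolysaccharide (LPS, a bacterial cell wall component), HFD with 0 h, chow with 24 h and chow with 0 h. Strain, age, diet composition and time on diet: none is given in the sources used here. No label names an animal, so the spread behind the p-values is that between these libraries and may be technical. The labels do hold a number that recurs at both times, 1, 2 and 3 in chow and 4, 6 and 7 in HFD. What this number stands for is not given, and libraries were not paired by it except where a replicate block is named. None of these 4 groups was left for 24 h without LPS, so effects of LPS and of time alone cannot be told apart, and differences of 24 h against 0 h are called LPS changes below.

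Complex I takes electrons from NADH, complex III passes them from ubiquinol to cytochrome c, and complex IV hands them to oxygen. ATP synthase lets the protons that these complexes pump flow back and makes ATP. Macrophages exposed to LPS are known for a shift of ATP production from this pathway toward glycolysis.

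In these cells a smaller share of the subunit genes than of all genes passed the test with LPS, as run without pairing of libraries. The median size of their log2 fold change was 0.238 in HFD, against 0.346 over all genes, and 0.28 in chow, against 0.344. In HFD 8 of 73 members passed the test, where 24.6% of all genes did, and in chow 11 passed, where 26.6% did. With the label numbers as a replicate block, the share of members that passed in HFD was near that of all genes. No member had a log2 fold change beyond 1 in either diet, against 16.2% of all genes in HFD and 15.1% in chow. Within complex I some subunits rose and others fell. Atp5b, the catalytic beta subunit of ATP synthase, rose with both diets, while Ndufs8 and Ndufb11, subunits of complex I, fell with both. No member passed the test between the diets. The 250 bases before the annotated start of these 3 genes, the members that changed in the same direction in both diets, are given here from RefSeq (GRCm38.p6). Capitals mark CCAAT or its reverse complement ATTGG, the core of the CCAAT box. For Atp5b the region is chr10:128083057-128083306 on the plus strand, for Ndufs8 chr19:3912775-3913024 on the minus strand, and for Ndufb11 chrX:20617620-20617869 on the minus strand.
Atp5b: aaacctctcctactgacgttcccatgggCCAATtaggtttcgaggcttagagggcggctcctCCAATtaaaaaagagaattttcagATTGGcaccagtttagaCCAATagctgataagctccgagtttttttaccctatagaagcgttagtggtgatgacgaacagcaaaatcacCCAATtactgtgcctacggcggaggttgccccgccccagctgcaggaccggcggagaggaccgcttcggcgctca
Ndufs8: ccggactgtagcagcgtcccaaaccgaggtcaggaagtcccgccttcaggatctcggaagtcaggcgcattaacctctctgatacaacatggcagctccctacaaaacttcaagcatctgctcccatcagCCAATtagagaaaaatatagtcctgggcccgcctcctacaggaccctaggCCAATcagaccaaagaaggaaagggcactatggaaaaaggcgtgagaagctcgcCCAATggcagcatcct
Ndufb11: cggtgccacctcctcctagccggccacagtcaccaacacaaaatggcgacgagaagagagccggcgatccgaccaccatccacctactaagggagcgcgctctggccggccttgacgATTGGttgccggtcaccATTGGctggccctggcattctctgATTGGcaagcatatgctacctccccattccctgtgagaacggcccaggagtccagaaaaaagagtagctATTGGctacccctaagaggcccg

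The core occurred 5 times before Atp5b, 3 times before Ndufs8 and 4 times before Ndufb11. Both strands of the 250-base windows of 61 members and of 27025 genes with a RefSeq promoter were searched for 5 motifs, and a gene counted if any of its listed starts held the motif. A CCAAT box (CCAAT) was found in 41.0% of the members and 37.5% of all genes. The core of NRF1 sites (GCGCA, any base, then GCGC), a factor known for controlling respiratory genes, was found in 14.8% of the members and 4.23% of all genes. The ETS core CCGGAAG, bound by GABP among others, was found in 18% of the members and 7.83% of all genes. The YY1 core AAGATGGCG was found in 1.64% of the members and 0.71% of all genes, and the ERR core AAGGTCA in 6.56% of the members and 4.7% of all genes. None of these 4 other motifs occurred in the 3 windows printed. A match describes the letters of a window, not a bound site.

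Library totals, summed over 1 transcript per gene, ranged from 2360244 counts (replicate 3 of HFD 0 h) to 20688308 (replicate 3 of HFD 24 h). The next lowest total was 9135057. The members together took between 0.444% (HFD 0 h replicate 3) and 0.707% (chow 24 h replicate 3) of such a total. A lane tag (lane 8) stands in the labels of the 3 libraries of chow 24 h and in that of replicate 1 of HFD 24 h, and in no other label, so among chow libraries this tag and LPS cannot be told apart. All 7 macrophage markers were found, and their summed level lay between 9870 and 12300 CPM in HFD 24 h, 14100 and 15700 in HFD 0 h, 9650 and 11100 in chow 24 h and 14300 and 15600 in chow 0 h. CPM are counts scaled to the same library total (by TMM), and the macrophage sums at 24 h were below all those at 0 h. This came from Lyz2, at 3796 to 5537 CPM in 24 h libraries and 9233 to 11050 in 0 h libraries, while Adgre1 (526 to 913 at 24 h, 180 to 398 at 0 h) and Fcgr1 (226 to 480 at 24 h, 49.5 to 96.1 at 0 h) were higher at 24 h. The sum of 5 large peritoneal macrophage markers was also lower at 24 h (409 to 513) than at 0 h (749 to 1270), through Cd9 (352 to 454 at 24 h, 721 to 1229 at 0 h), whereas Prg4 had 22.9 to 41.3 at 24 h and 4.76 to 23.4 at 0 h. Of 4 eosinophil markers Siglecf was lower at 24 h (3.21 to 5.85) than at 0 h (13 to 23), and Prg2, Epx and Ear1 had at most 0.56 CPM in any library. Markers of B, T and NK cells, dendritic cells, mast cells, eosinophils and red blood cells summed to at most 23.2 CPM, and those of neutrophils to 20.4 to 51.6 at 24 h and 8.32 to 13.5 at 0 h, nearly all from S100a8, while S100a9 had at most 0.24. Stromal markers such as Col1a1 were present, with sums of 678 to 2990 CPM in single libraries, and did not separate the groups. In bulk RNA, fewer cells of a type and less RNA per cell cannot be told apart, and the part of these cells in the results below was not tested.

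Levels of the members, averaged over the 12 libraries and divided by transcript length, spanned a wide range. The highest were 401 CPM per kilobase for Cox6a1 and 351 for Cox4i1, both of complex IV, and 323 for Atp5b. Within complex I the highest was Ndufa3 at 186 CPM per kilobase, and within complex III it was Uqcrh at 121. Low values included those of Ndufs5 (11.2) and of Cox7a1 (2.82), the form of subunit 7a found mainly in heart and skeletal muscle. Atp5g1 came out at 1.54, but the length used for it, 4715 bases, exceeds its whole RefSeq gene (chromosome 11, 96072793 to 96075694). That value is therefore not reliable, and its mean before division by length was 7.28 CPM. Of the 73 members 23 have a near-identical copy elsewhere in the annotation (at least 95% identity over at least 100 bases), so reads may be shared with copies. Ndufs5 on chromosome 4 and its pseudogene on chromosome 16 are the clearest case: HFD 24 h libraries held 74, 73 and 92 counts for Ndufs5 and 79, 75 and 96 for Ndufs5-ps, and their counts differed by at most 5 in any library.

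The libraries of one group differed from each other in the members as a whole. Taking for each member the difference of log2(CPM + 0.5) from its mean in chow 0 h, the median over the members was 0.23, -0.03 and -0.36 in HFD 24 h replicates 1, 2 and 3. In HFD 0 h the medians were 0.02, -0.06 and -0.38, in chow 24 h 0.10, 0.14 and 0.27, and in chow 0 h 0.00, -0.05 and 0.03. All 3 chow 24 h medians were thus above those of chow 0 h, while in HFD the groups overlapped. Over all genes tested the medians lay between -0.05 and 0.02 in every library. HFD 24 h replicate 1 held the highest of the 3 values of its group for 59 of 73 members (36.3% of all genes) and replicate 3 the lowest for 59 (32.6% of all genes). HFD 0 h replicate 3, the shallowest library, was lowest of its group for 46 members (44.0% of all genes). The median coefficient of variation of a member was 22.7% in HFD 24 h, 20.2% in HFD 0 h, 17.6% in chow 24 h and 7.13% in chow 0 h.

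**Figure D1:**
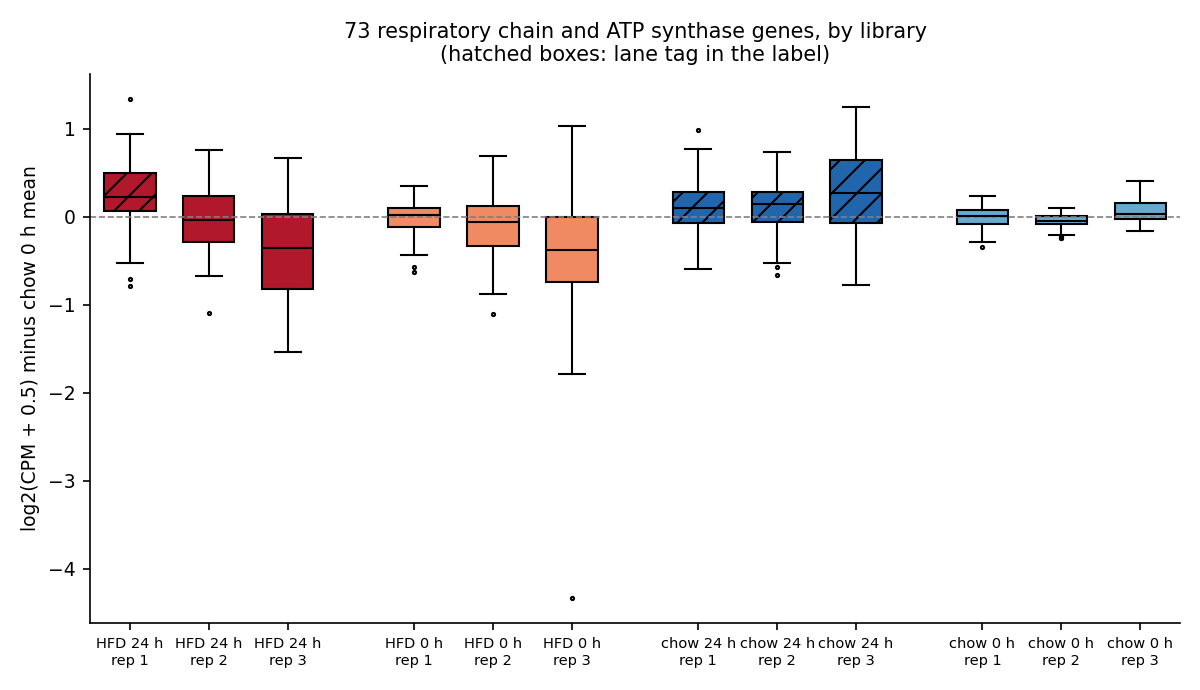
Difference of log2(CPM + 0.5) from the chow 0 h mean for the 73 members (vertical axis, log2 units) in each of the 12 libraries; boxes span the quartiles with the median as a line, whiskers reach 1.5 box heights and points are genes beyond them, and hatching marks the lane tag. The medians of HFD 24 h run from 0.23 in replicate 1 to -0.36 in replicate 3, and those of chow 24 h lie between 0.10 and 0.27; the low point of HFD 0 h replicate 3 is Cox7c.

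In each of the 4 complexes HFD 24 h replicate 1 had the highest median of its group and replicate 3 the lowest, and HFD 0 h replicate 3 had the lowest of its group, while the order of the other libraries differed between complexes. In HFD 24 h replicate 1 the median difference was 0.20 for complex I, 0.17 for complex III, 0.36 for complex IV and 0.31 for complex V, and in HFD 24 h replicate 3 it was -0.22, -0.27, -0.54 and -0.32 in the same order of complexes. In HFD 0 h replicate 3 it was -0.26, -0.15, -0.66 and -0.46. Complex IV thus had the widest spread between HFD libraries. The 3 chow 24 h medians of complex I were 0.12, 0.19 and 0.19 against 0.00, -0.02 and 0.03 in chow 0 h, and did not overlap, whereas those of complex III, at 0.02, 0.04 and 0.19 against 0.05, -0.08 and 0.01, overlapped. For complex IV they were 0.15, 0.11 and 0.34 against -0.08, -0.02 and 0.18, which overlapped as well, and for complex V 0.11, 0.12 and 0.31 against 0.00, -0.05 and 0.03, which did not.

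**Figure D2:**
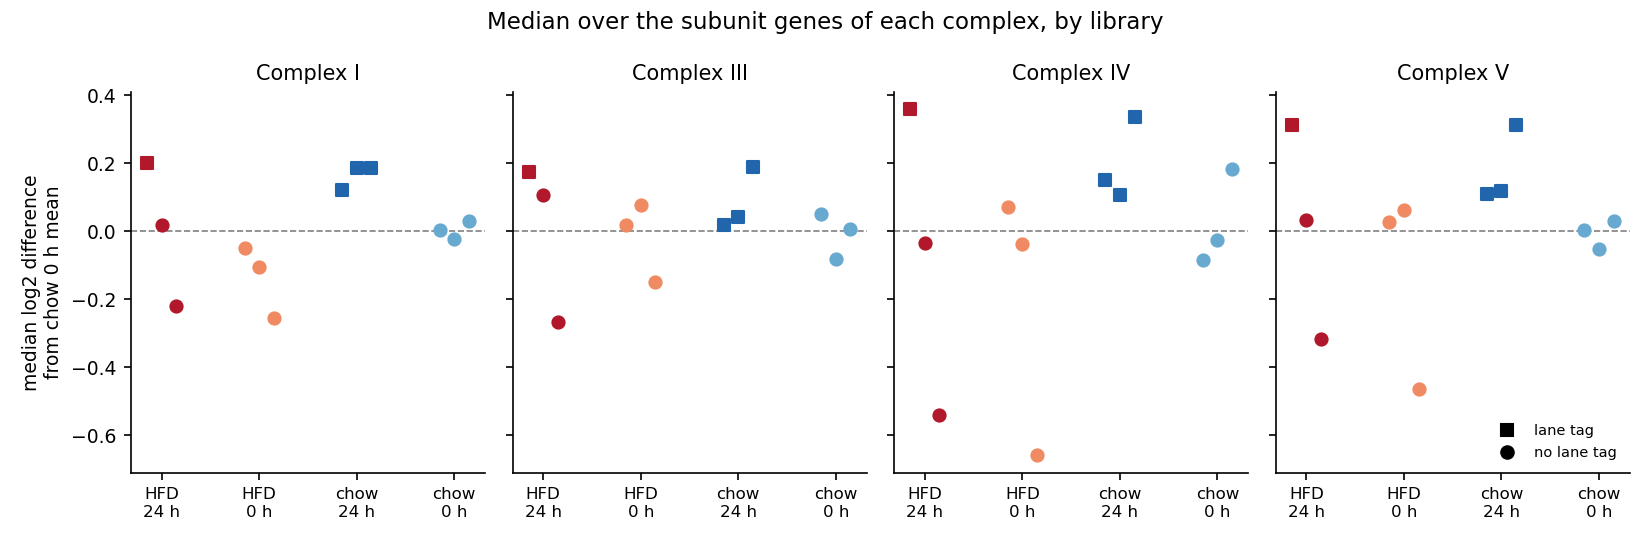
Median over the subunit genes of each complex of the log2 difference from the chow 0 h mean (vertical axis, log2 units), 1 point per library, with the groups along the horizontal axis and squares for libraries with the lane tag. In each panel HFD 24 h replicate 1 is the highest HFD library and HFD 24 h replicate 3 or HFD 0 h replicate 3 the lowest; complex IV spans from 0.36 to -0.66.

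The LPS comparison asks how the subunit genes changed over 24 h within each diet. At a Benjamini-Hochberg adjusted p of 0.05 over all genes (edgeR, quasi-likelihood), 8 of 73 members changed in HFD (11%), where 24.6% of all genes did, 4 of them higher and 4 lower. The split was 2 and 6 with upper-quartile factors in place of TMM, and 5 and 6 with an offset for transcript length. Over all 12641 genes it was 1392 and 1842 with upper-quartile factors, and 1804 and 1484 with the length offset. In chow 11 of 73 changed (15.1%), where 26.6% of all genes did, 8 higher and 3 lower, or 8 and 5 with the length offset. The smaller share of members in HFD depended on the model: with the label numbers as a replicate block it was near that of all genes. The median log2 fold change of the members was 0.11 in HFD and 0.17 in chow, and that of all genes was 0.00 in both. Log2 fold changes of the members lay between -0.87 and 0.87 in HFD and between -0.64 and 0.87 in chow, while 16.2% of all genes in HFD and 15.1% in chow had one beyond 1 in size. All 3 libraries of HFD 24 h were above all 3 of HFD 0 h for 8 of 73 members and below for 5 of 73. Both were smaller shares than the 18.2% and 17.2% of all genes. In chow the counts were 23 of 73 above and 6 of 73 below, against 2847 (22.5%) and 2900 (22.9%) of 12641 genes. A larger share of members than of all genes was thus above in chow, and a smaller share below. Over both diets, 16 members passed in at least 1 diet, 57 in neither, and 0 passed in opposite directions. The overlap between the diets was not counted over all genes, so these numbers cannot be read against genes in general.

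These counts leaned on single libraries. Without HFD 24 h replicate 1, the HFD library with the lane tag, the HFD median was -0.04, with 1 member higher and 6 lower, and without HFD 24 h replicate 3 it was 0.27, with 10 higher and 1 lower. Over all genes the former fit called 1582 higher and 1337 lower of 12914, and the latter 1410 and 1110 of 12911. Without HFD 0 h replicate 3 the HFD median was 0.05, and without replicate 1 or 2 of that group it was 0.19 and 0.18. The HFD count was 5 without any single chow 0 h library, 13 without chow 24 h replicate 3, 4 without HFD 0 h replicate 3 and 3 without HFD 24 h replicate 2. The chow count was 7, 5 and 7 without chow 0 h replicates 1, 2 and 3. Over all genes those fits called 1429, 1291 and 1370 higher and 1306, 1244 and 1242 lower in chow. With the lane tag as a covariate, where 1 tagged library in HFD sets the lane term, the chow median was -0.29, with 0 higher and 5 lower, and the HFD median was -0.06, with 1 higher and 6 lower. Over all 12641 genes this fit called 874 higher and 635 lower in chow, and 1522 and 1401 in HFD.

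**Figure D3:**
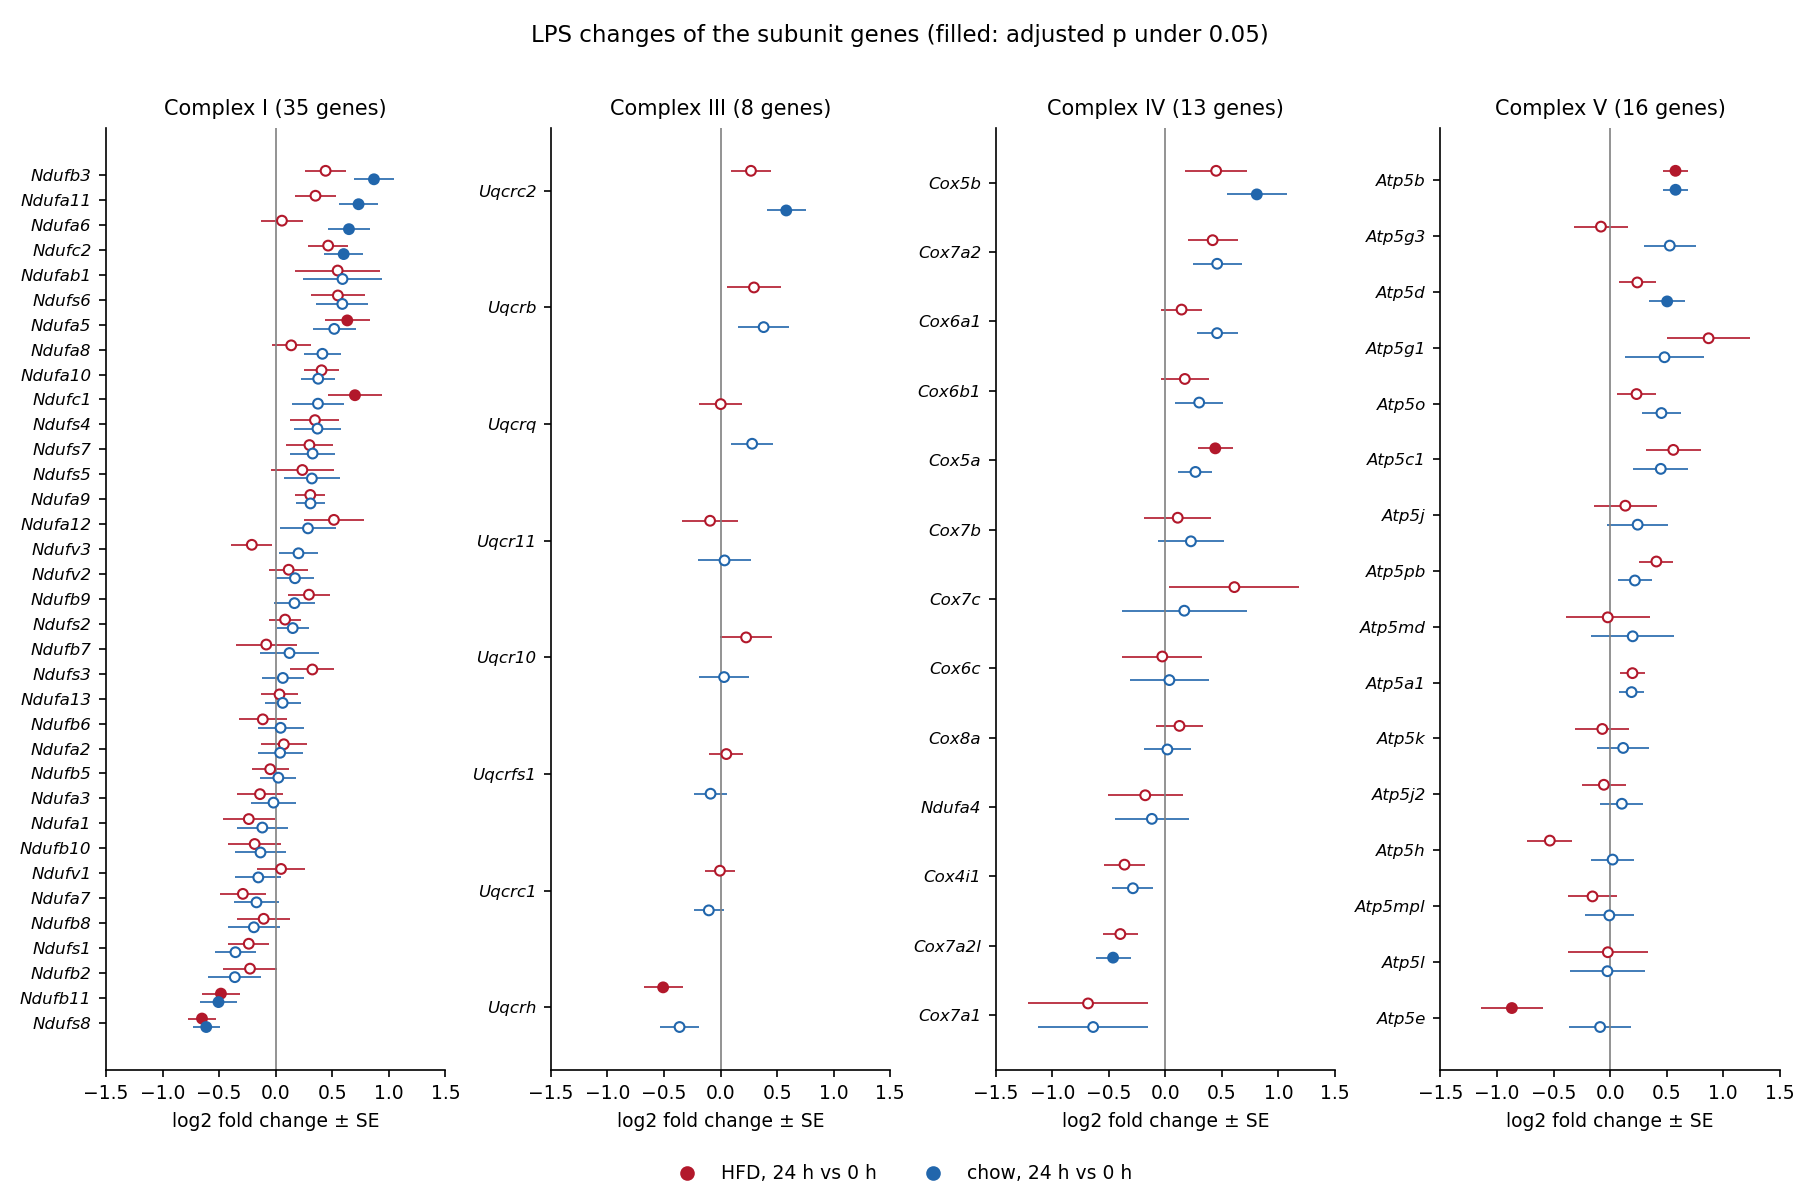
Log2 fold change of 24 h against 0 h of LPS with its standard error (horizontal axis) for each subunit gene, in HFD (red, upper of each pair) and in chow (blue), by complex and ordered by the chow value; filled points passed at an adjusted p of 0.05. Only Atp5b, Ndufs8 and Ndufb11 are filled in both diets, and no member lies beyond 1 in size.

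In complex I, 4 of 35 genes changed with LPS in HFD and 6 in chow, against the same 24.6% and 26.6% of all genes. Ndufs8 (chromosome 19, 3908863 to 3912774, GRCm38.p6), a core subunit that carries iron-sulfur clusters toward the quinone site, had 39.7, 43.0 and 37.1 CPM in HFD 24 h, against 60.5, 62.0 and 66.5 in HFD 0 h. Its chow values were 46.8, 43.4 and 45.1 CPM at 24 h, against 72, 65.7 and 69.6 at 0 h. All 24 h libraries were below all 0 h libraries in both diets. Its log2 fold change was -0.65 ± 0.12 (SE) in HFD (adjusted p = 0.000618) and -0.61 ± 0.12 in chow (adjusted p = 0.000822). Ndufb11 (chromosome X, 20615326 to 20617619), an accessory subunit of the membrane arm, had 53.2, 45.5 and 33.4 CPM in HFD 24 h, against 64.0, 53.7 and 67.9 in HFD 0 h. The chow libraries had 44.8, 49.9 and 40.2 CPM at 24 h, against 65.2, 62.9 and 63.3 at 0 h. Its groups did not overlap either, though in HFD they nearly touched. It fell with a log2 fold change of -0.48 ± 0.16 in HFD (adjusted p = 0.0395) and -0.51 ± 0.16 in chow (adjusted p = 0.0269). Exons of an antisense gene cover 12.9% of its transcript, and 1 copy lies elsewhere.

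The complex I genes that rose passed the test as run here in 1 diet each. Ndufb3 (chromosome 1, 58586397 to 58595964), an accessory subunit of the membrane arm, had 44.2, 34 and 26 CPM in HFD 24 h against 27.4, 25.4 and 22.9 in HFD 0 h. In chow it had 43.6, 42.3 and 52.7 CPM at 24 h against 23.6, 26 and 26.3 at 0 h. The chow groups were apart and the HFD groups overlapped. It rose in chow, with 0.87 ± 0.18 (adjusted p = 0.00113), and its value in HFD was 0.44 ± 0.18 (adjusted p = 0.0894, and 0.0143 without HFD 24 h replicate 3). Ndufa11, another membrane arm subunit, averaged 31.7 ± 6.7 CPM in HFD 24 h and 24.8 ± 3.1 in HFD 0 h, and 35.5 ± 3.3 in chow 24 h and 21.4 ± 1.8 in chow 0 h (SD, n = 3 each). It rose in chow, with 0.73 ± 0.17 (adjusted p = 0.00393), and its HFD value was 0.35 ± 0.18 (adjusted p = 0.172, and 0.033 without HFD 24 h replicate 3). Ndufa6, an accessory subunit of the arm that reaches into the matrix, rose in chow to 67.4 ± 11.8 CPM at 24 h against 43.1 ± 2.0 at 0 h, with 0.65 ± 0.18 (adjusted p = 0.0135). In HFD it had 49.0 ± 10.6 CPM at 24 h and 48.2 ± 11.7 at 0 h (adjusted p = 0.872). Ndufc2 of the membrane arm rose in chow, with 72.2 ± 5.3 CPM at 24 h and 47.6 ± 0.9 at 0 h and a log2 fold change of 0.60 ± 0.17 (adjusted p = 0.0143). Its HFD means were 64.0 ± 16.1 and 45.4 ± 9.1 CPM, with 0.46 ± 0.17 (adjusted p = 0.0639, and 0.0165 without HFD 24 h replicate 3 or 0.0444 without chow 24 h replicate 3). It passed in HFD with DESeq2 (0.0461), with no filter on low counts (0.0313) and with the length offset (0.0311).

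In HFD the complex I genes that rose were Ndufc1, also of the membrane arm, and Ndufa5, of the matrix arm. Ndufc1 had 38.5, 25.9 and 26.1 CPM in HFD 24 h, against 23.7, 18.5 and 10.3 in HFD 0 h, with no overlap and a log2 fold change of 0.70 ± 0.24 (adjusted p = 0.0416). In chow its means were 30.1 ± 5.7 CPM at 24 h and 23.3 ± 3.4 at 0 h (adjusted p = 0.267). Ndufa5 had 51.9, 42.6 and 32.6 CPM in HFD 24 h, against 29.5, 29.5 and 20.7 in HFD 0 h, with 0.63 ± 0.20 (adjusted p = 0.0279). Its chow groups did not overlap, with 49.9 ± 11.2 CPM at 24 h and 34.9 ± 3.8 at 0 h, but the change did not pass (0.52 ± 0.19, adjusted p = 0.0569, and 0.0381 without chow 24 h replicate 1, 0.0405 without HFD 0 h replicate 3, 0.0416 without HFD 24 h replicate 1 or 0.0338 without HFD 24 h replicate 3). It passed in chow with median-ratio factors (0.0498), no filter (0.0347), DESeq2 (0.0435) and only the libraries compared (0.035). Ndufs1, the large iron-sulfur subunit near the NADH site, did not pass in either diet: it averaged 39.2 ± 9.1 CPM in HFD 24 h and 45.4 ± 9.5 in HFD 0 h (adjusted p = 0.383), and 32.4 ± 3.2 in chow 24 h and 41.5 ± 2.0 in chow 0 h (adjusted p = 0.165). Nor did Ndufs4, whose loss causes Leigh syndrome in humans and a like disease in mice. It averaged 43.7 ± 5.9 CPM in HFD 24 h and 33.0 ± 11.6 in HFD 0 h (adjusted p = 0.276), and 47.1 ± 12.2 in chow 24 h and 36.5 ± 1.6 in chow 0 h (adjusted p = 0.228).

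Calls in complex I differed in how far they depended on single libraries. Those of Ndufs8 in both diets and of Ndufb3 and Ndufa11 in chow held on leaving out each library in turn. With the lane tag as a covariate Ndufs8 in chow had -0.60 ± 0.21 (adjusted p = 0.0821), Ndufb3 0.31 ± 0.27 (0.541), Ndufa11 0.44 ± 0.30 (0.422), Ndufa6 0.15 ± 0.30 (0.825) and Ndufc2 0.03 ± 0.25 (0.965). The Ndufa6 call was also lost on leaving out replicate 1 of chow 0 h (adjusted p = 0.0541) or replicate 3 of chow 24 h (0.0617), and that of Ndufc2 without chow 0 h replicate 2 (0.0526). That of Ndufb11 in chow was lost on leaving out replicate 1 (0.0832), 2 (0.069) or 3 (0.0634) of chow 0 h or replicate 1 (0.0808) or 3 (0.0976) of chow 24 h. In HFD the Ndufb11 call ended without any library except chow 24 h replicate 3, HFD 0 h replicate 2 or HFD 24 h replicate 1, with adjusted p between 0.0534 and 0.209. Ndufc1 in HFD was lost without HFD 0 h replicate 2 (0.0946) or 3 (0.108) or HFD 24 h replicate 1 (0.16), and with the lane tag (0.175). Ndufa5 in HFD was lost without HFD 0 h replicate 3 (0.0815) or HFD 24 h replicate 1 (0.116) or 2 (0.057), with the lane tag (0.124) and with limma-voom (0.0767).

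**Figure D4:**
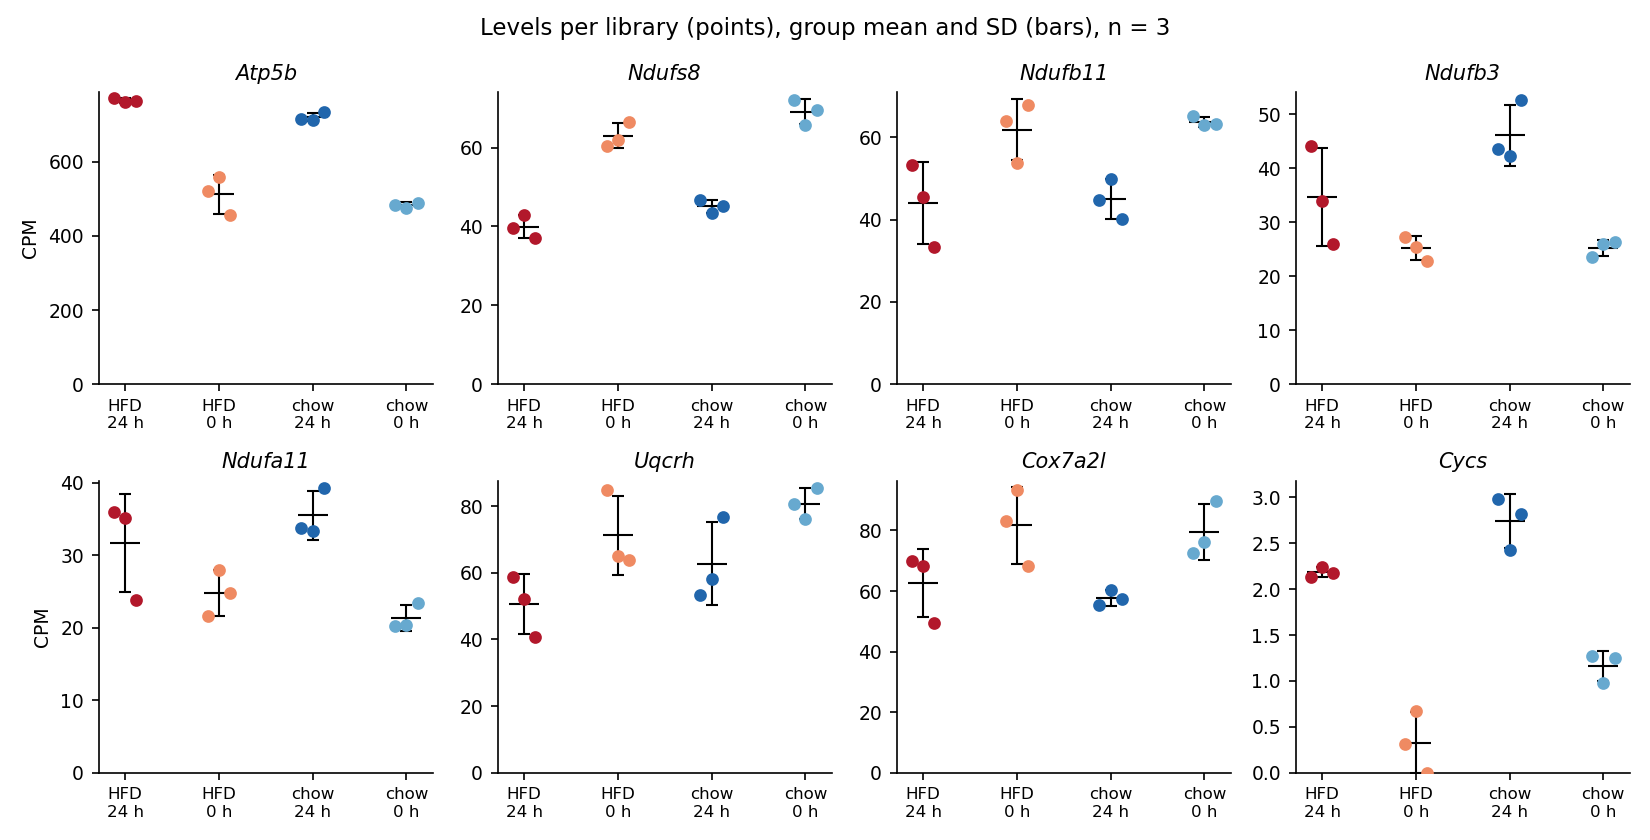
CPM in each library (points) with the group mean and SD (bars, n = 3) for 7 members and for Cycs, which encodes cytochrome c; each panel has its own vertical axis from 0. Atp5b is higher, and Ndufs8 and Ndufb11 are lower, in all 24 h libraries of either diet, and Cycs is higher at 24 h at a level of at most 2.99 CPM.

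In complex III, 1 of 8 genes changed in each diet (12.5%), where 24.6% of all genes did in HFD and 26.6% in chow. Uqcrc2 (chromosome 7, 120635189 to 120659523), a core protein on the matrix side, had 102, 123 and 114 CPM in HFD 24 h, against 84.8, 116 and 78.2 in HFD 0 h. Its chow libraries held 95.4, 108 and 150 CPM at 24 h, against 80.1, 74.3 and 81.7 at 0 h. The chow groups did not overlap and the HFD groups did. It rose in chow with 0.58 ± 0.17 (adjusted p = 0.0186), and its value in HFD was 0.27 ± 0.17 (adjusted p = 0.297). An antisense gene covers 26.6% of its transcript. Uqcrh (chromosome 4, 116066965 to 116075070), the hinge subunit next to cytochrome c1, went the other way, with 58.8, 52.1 and 40.9 CPM in HFD 24 h, against 85.0, 65.1 and 63.8 in HFD 0 h. Its chow values were 53.2, 58.2 and 76.9 CPM at 24 h, against 80.5, 76.1 and 85.5 at 0 h. Here the HFD groups did not overlap and the chow groups did, through chow 24 h replicate 3. It fell in HFD with -0.51 ± 0.17 (adjusted p = 0.04), and its chow value was -0.36 ± 0.17 (adjusted p = 0.132, and 0.0301 without chow 24 h replicate 3 or 0.0154 with the length offset). Uqcrc1, the partner of Uqcrc2, averaged 136 ± 7.6 CPM in HFD 24 h and 137 ± 14.9 in HFD 0 h (adjusted p = 0.985), and 109 ± 14 in chow 24 h and 118 ± 7.0 in chow 0 h (adjusted p = 0.626). The Uqcrc2 call was lost on leaving out replicate 2 (0.0797) or 3 (0.0506) of chow 0 h or replicate 3 of chow 24 h (0.105), and with the lane tag (0.125). Without replicate 1 (0.232) of HFD 0 h or replicate 2 (0.0884) or 3 (0.214) of HFD 24 h the Uqcrh call was lost, as it was without any single chow 0 h library (0.0597 to 0.0666) or replicate 2 of chow 24 h (0.0619).

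In complex IV, 1 of 13 genes changed in HFD (7.69%, against 24.6% of all genes) and 2 in chow (15.4%, against 26.6%). Cox5a (chromosome 9, 57517328 to 57532427), a subunit on the matrix side, had 157, 120 and 98.5 CPM in HFD 24 h, against 103, 88.2 and 84.1 in HFD 0 h. The groups overlapped, through HFD 24 h replicate 3 and HFD 0 h replicate 1. It rose in HFD with 0.44 ± 0.15 (adjusted p = 0.0442), and averaged 134 ± 6.4 CPM in chow 24 h and 111 ± 2.0 in chow 0 h (adjusted p = 0.223). Another gene lies antisense to 41.7% of its transcript. Cox5b (chromosome 1, 36691487 to 36693388), which holds a zinc ion, had 17.5, 19.2 and 31.1 CPM in chow 24 h, against 13.1, 11 and 14.7 in chow 0 h. These groups did not overlap, and it rose in chow with 0.81 ± 0.26 (adjusted p = 0.0306). In HFD its values were 21.8, 18.1 and 15.9 CPM at 24 h, against 13.5, 17.9 and 6.74 at 0 h, with 0.45 ± 0.27 (adjusted p = 0.262), and 1 copy lies elsewhere.

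Cox7a2l (chromosome 17, 83501917 to 83514333), also known as SCAF1, links complexes III and IV in supercomplexes. It had 69.8, 68.4 and 49.6 CPM in HFD 24 h, against 83.3, 93.4 and 68.3 in HFD 0 h, and 55.2, 60.5 and 57.5 in chow 24 h, against 72.5, 76.1 and 89.9 in chow 0 h. The chow groups were apart, and the HFD groups overlapped. It fell in chow with -0.46 ± 0.16 (adjusted p = 0.0355), and its HFD value was -0.40 ± 0.16 (adjusted p = 0.0765, and 0.0295 without HFD 0 h replicate 3, 0.0341 with upper-quartile factors or 0.00851 with the length offset). Leaving out any of the 6 chow libraries ended its chow call, with adjusted p of 0.0514 to 0.167, as did the lane tag (0.115) and no filter on low counts (0.0517). The Cox5b call was lost on leaving out replicate 1 (0.0705) or 2 (0.129) of chow 0 h or replicate 3 of chow 24 h (0.164), and with the lane tag (0.633). The Cox5a call ended without chow 0 h replicate 1 (0.051), 2 (0.0627) or 3 (0.0507), HFD 0 h replicate 2 (0.11) or 3 (0.0998) or HFD 24 h replicate 1 (0.196) or 2 (0.0564), and with the lane tag (0.228).

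Several subunits of complex IV have paired genes, a common form and one restricted to certain tissues or conditions. The common forms were well expressed. Cox4i1 averaged 216 ± 64.3 CPM in HFD 24 h and 277 ± 45.4 in HFD 0 h (adjusted p = 0.171), and 249 ± 17.6 in chow 24 h and 304 ± 26.9 in chow 0 h (adjusted p = 0.282). It passed in both diets with an offset for transcript length (0.0102 in HFD and 0.0224 in chow) and with the lane tag (0.0198 and 0.0395), and in HFD without HFD 24 h replicate 1 (0.0256). Its chow libraries at 24 h were all below those at 0 h. Cox6a1 averaged 225 ± 57.8 CPM in HFD 24 h and 205 ± 41.3 in HFD 0 h (adjusted p = 0.63), and 282 ± 43.9 in chow 24 h and 205 ± 12.9 in chow 0 h (adjusted p = 0.0743, and 0.0366 without HFD 24 h replicate 1). Cox6b1, Cox7a2, Cox8a and Ndufa4 had adjusted p of 0.616, 0.191, 0.731 and 0.759 in HFD and 0.338, 0.139, 0.965 and 0.838 in chow, where Cox6b1 passed with only the libraries compared (0.0331). Of the restricted forms Cox7a1 alone passed the minimum of 10 mean counts, at 0.79 ± 0.46 CPM in HFD 24 h and 1.2 ± 0.28 in HFD 0 h (adjusted p = 0.394), and 0.95 ± 0.05 in chow 24 h and 1.49 ± 0.10 in chow 0 h (adjusted p = 0.382). Cox7c, a member with 2 copies elsewhere, had 0.899 CPM in HFD 0 h replicate 3, against 16.7 to 34.3 in the other 2 libraries of that group.

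The other 9 genes whose symbol fits fell short of 10 mean counts: Atp5g2, Cox4i2, Cox6a2, Cox6b2, Cox7b2, Cox8b, Cox8c, Ndufa4l2 and Ndufb4. Cox7b2 and Cox8c had 0 counts in all libraries, and Cox8b had 1 count in all. Ndufa4l2, a relative of Ndufa4 that hypoxia is known to induce, passed the filter of the test only through 24 h libraries. Its counts are therefore given without a p-value. It had 2, 16 and 9 counts in HFD 24 h against 2, 0 and 0 in HFD 0 h, and 15, 10 and 2 counts in chow 24 h against 0, 0 and 0 in chow 0 h. With counts pooled over each group and 3 counts as the floor at 0 h, the chow ratio was 8.36 or more. This bound leaves out the spread between the chow 24 h libraries. In HFD the ratio per library total was 5.39, which also leaves out the spread between libraries: replicate 1 had 2 counts at both times. Cox6a2, the form of heart and skeletal muscle, had 5, 18 and 10 counts in HFD 24 h against 0, 4 and 0 in HFD 0 h, and 7, 8 and 10 in chow 24 h against 5, 3 and 0 in chow 0 h, and was too low to be tested.

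In ATP synthase, 2 of 16 genes changed in each diet (12.5%), where 24.6% of all genes did in HFD and 26.6% in chow. Atp5b (chromosome 10, 128083307 to 128090388) had 772, 759 and 763 CPM in HFD 24 h, against 520, 559 and 456 in HFD 0 h. In chow the values were 715, 712 and 733 CPM at 24 h, against 484, 474 and 489 at 0 h. The 24 h libraries of both diets were close together and above every 0 h library, also in HFD 24 h, where most members varied between the libraries. It rose with 0.58 ± 0.11 in HFD (adjusted p = 0.00094) and 0.58 ± 0.11 in chow (adjusted p = 0.00086). The HFD call held under all 25 alternatives, and the chow call under 24, ending with the lane tag at a similar fold and a larger error (0.56 ± 0.21, adjusted p = 0.104). Atp5a1, which encodes the alpha subunit, its partner in the catalytic head, had 616, 517 and 540 CPM in HFD 24 h against 500, 493 and 465 in HFD 0 h, and 577, 559 and 539 in chow 24 h against 491, 479 and 499 in chow 0 h. Its groups did not overlap in either diet, yet its log2 fold changes of 0.20 ± 0.11 in HFD (adjusted p = 0.231) and 0.19 ± 0.11 in chow (adjusted p = 0.249) did not pass.

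Atp5d, the delta subunit of the central stalk, rose in chow, with 135, 126 and 89.6 CPM at 24 h against 86.7, 75.5 and 84.6 at 0 h and a log2 fold change of 0.50 ± 0.16 (adjusted p = 0.0277). In HFD it averaged 112 ± 13.5 CPM at 24 h and 94.4 ± 13.9 at 0 h, with 0.24 ± 0.16 (adjusted p = 0.322). Atp5e, the epsilon subunit of the same stalk, fell in HFD, with 67.9, 55.5 and 27.3 CPM at 24 h against 71.6, 90.9 and 115 at 0 h. Its HFD groups did not overlap, though each spread widely, and the log2 fold change was -0.87 ± 0.28 (adjusted p = 0.0317). In chow it averaged 52.9 ± 12.5 CPM at 24 h and 56.2 ± 4.3 at 0 h (adjusted p = 0.856). The Atp5d call was lost on leaving out replicate 2 (0.119) or 3 (0.0615) of chow 0 h or replicate 1 (0.114) or 2 (0.0818) of chow 24 h, with the lane tag (0.654), with the length offset (0.0782) and with upper-quartile factors (0.06). That of Atp5e ended without HFD 0 h replicate 2 (0.075) or 3 (0.123) or HFD 24 h replicate 2 (0.0518) or 3 (0.0914) and with no filter on low counts (0.0875). Without both libraries whose labels hold the number 7, HFD 0 h replicate 3 and HFD 24 h replicate 3, its log2 fold change was -0.40 ± 0.21 (0.215).

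Subunit c, which forms the rotating ring, has 3 genes for 1 mature protein. Atp5g3 averaged 73.5 ± 29.1 CPM in HFD 24 h and 78.3 ± 12.1 in HFD 0 h (adjusted p = 0.846), and 95 ± 23.9 in chow 24 h and 65.8 ± 2.9 in chow 0 h (adjusted p = 0.109, and 0.0232 without chow 24 h replicate 3 or 0.0256 without HFD 24 h replicate 1). Atp5g1, with 3 copies elsewhere, had 16.1, 7.11 and 6.01 CPM in HFD 24 h against 7.49, 4.34 and 2.70 in HFD 0 h (adjusted p = 0.0978, and 0.0346 without HFD 0 h replicate 1 or 0.0348 without HFD 24 h replicate 3). In chow it had 9.85, 8.08 and 7.47 CPM at 24 h against 5.71, 6.08 and 6.40 at 0 h (adjusted p = 0.351). Atp5g2 had 17 counts over HFD 24 h and 2 over HFD 0 h, 17 over chow 24 h and 9 over chow 0 h, and was not tested.

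Assembly factors build the complexes without being part of them. Of 51 assembly factors tested, 6 rose and 0 fell in HFD and 7 rose and 0 fell in chow (over all genes 12.7% rose in HFD and 13.7% in chow), with medians of 0.19 and 0.13. Ndufaf3, needed early in complex I assembly, had 19.5, 19.7 and 17.9 CPM in HFD 24 h against 8.43, 11.2 and 7.64 in HFD 0 h, and 19.4, 19.0 and 24.0 in chow 24 h against 7.69, 10.1 and 10.8 in chow 0 h. Its log2 fold change was 1.03 ± 0.20 in HFD (adjusted p = 0.00101) and 1.13 ± 0.19 in chow (adjusted p = 0.00024). Coa5, an assembly factor of complex IV, averaged 262 ± 35.0 CPM in HFD 24 h and 118 ± 24.7 in HFD 0 h, and 264 ± 36.5 in chow 24 h and 129 ± 6.1 in chow 0 h. It rose with 1.14 ± 0.16 in HFD (adjusted p = 3.68e-05) and 1.04 ± 0.16 in chow (adjusted p = 8.7e-05), and was called under all 25 alternatives in each diet. Cox17, a copper chaperone, rose with 0.96 ± 0.23 in HFD (adjusted p = 0.00446) and 0.94 ± 0.22 in chow (adjusted p = 0.00371), and Cox18, which inserts a mitochondrially encoded subunit, with 1.46 ± 0.28 (adjusted p = 0.00069) and 1.03 ± 0.24 (adjusted p = 0.00416). For complex III, Uqcc1 rose in HFD (0.52 ± 0.18) and chow (0.56 ± 0.18), and Uqcc3 (0.60 ± 0.18) and Bcs1l (0.65 ± 0.22), which places the Rieske protein, in chow. The remaining HFD call was Ndufaf5 (0.85 ± 0.29). With the lane tag the chow values of Ndufaf3 (1.07, adjusted p = 0.058), Cox17 (0.16, 0.825) and Cox18 (1.16, 0.114) did not pass, nor did those of Uqcc1, Uqcc3 and Bcs1l (0.171, 0.945 and 0.438). No other alternative ended a call of Ndufaf3, Coa5, Cox17 or Cox18. The calls of Uqcc1, Bcs1l and Ndufaf5 each ended on leaving out at least 4 of the 12 libraries in turn, and that of Uqcc3 without chow 0 h replicate 1 (0.067) or 2 (0.0531).

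Cycs, the gene of cytochrome c, which carries electrons from complex III to complex IV, was counted at a low level. It had 2.14, 2.24 and 2.17 CPM in HFD 24 h against 0.312, 0.668 and 0 in HFD 0 h, and 2.99, 2.42 and 2.82 in chow 24 h against 1.27, 0.973 and 1.25 in chow 0 h. All 24 h libraries were above all 0 h libraries of the same diet. It rose with 2.35 ± 0.53 in HFD (adjusted p = 0.00287) and 1.23 ± 0.41 in chow (adjusted p = 0.035). The chow call ended on leaving out any of the 6 chow libraries (0.054 to 0.121), with the lane tag (0.341), with isoforms summed (0.0612) and with no filter (0.0509).

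Among 13 regulators of respiratory genes, 1 rose and 0 fell in HFD, where 12.7% of all genes rose and 12% fell, and 2 rose and 1 fell in chow, where 13.7% rose and 12.9% fell. Perm1, known in muscle as a gene induced by PGC-1 coactivators and ERR factors, had 15.9, 14.7 and 20.5 CPM in HFD 24 h against 6.45, 5.01 and 8.99 in HFD 0 h, and 22.3, 20.9 and 23.1 in chow 24 h against 6.82, 7.62 and 7.65 in chow 0 h. It rose with 1.42 ± 0.22 in HFD (adjusted p = 0.000102) and 1.58 ± 0.20 in chow (adjusted p = 1.22e-05). Ppargc1a, which encodes the coactivator PGC-1alpha, had 0.523, 0.897 and 1.44 CPM in chow 24 h against 1.51, 2.59 and 5.07 in chow 0 h, and fell with -1.65 ± 0.47 (adjusted p = 0.0143). In HFD it had 2.29, 2.13 and 2.45 CPM at 24 h against 5.62, 4.90 and 3.15 at 0 h, with -1.05 ± 0.44 (adjusted p = 0.094). The chow call was lost with the lane tag (0.245), and on leaving out replicate 3 of chow 0 h (0.133) or replicate 1 of chow 24 h (0.0738). Gabpb1, which pairs with the ETS factor GABPA, rose in chow with 0.68 ± 0.20 (adjusted p = 0.0182), and this call was lost on leaving out replicate 2 of chow 0 h (0.0857) or replicate 1 (0.069) or 3 (0.062) of chow 24 h.

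Diet was compared at each time. Before LPS, 0 of 73 members passed edgeR's test between HFD and chow, where 0.087% of all genes did. At an unadjusted p of 0.05 there were 7 of 73 members, against 778 of 12641 genes. DESeq2 and limma-voom also gave 0 members after adjustment. The median log2 fold change of HFD against chow was -0.09, with 50 members lower in HFD and 23 higher, against 0.00 over all genes. All 3 HFD libraries were above all 3 chow libraries for 2 of 73 members, a smaller share than the 5.87% of all genes. They were below for 9 of 73, a larger share than the 6.35% of all genes. Ndufs5 and Ndufs5-ps, with nearly the same counts in every library, enter these tallies as separate members. Both are among those below and those with an unadjusted p under 0.05, at 0 h and at 24 h. The median was -0.04 without HFD 0 h replicate 3, and -0.16 and -0.18 without HFD 0 h replicate 1 or 2. At 24 h, 0 of 73 passed, where 0.00791% of all genes did, and 0 passed by DESeq2 and by limma-voom. The edgeR test gave an unadjusted p under 0.05 for 9 of 73 members and for 993 of 12641 genes. The median was -0.18, with 61 members lower in HFD and 12 higher, against 0.00 over all genes. All 3 HFD libraries were above all 3 chow libraries for 2 of 73 members and below for 4 of 73, both smaller shares than the 6.28% and 5.98% of all genes. This median moved with 1 library: it was -0.03 without HFD 24 h replicate 3 and -0.37 without HFD 24 h replicate 1, and -0.10 without chow 24 h replicate 3. The difference between the LPS changes of the diets, tested as an interaction, passed for 0 members, where 0.0% of all genes passed. An unadjusted p under 0.05 was found for 1 member, Ndufa6, and for 297 of 12641 genes. DESeq2 and limma-voom gave 0 members here too. These 2 diet comparisons and the LPS comparisons share libraries.

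By complex, the diet medians at 24 h were -0.17 for complex I (31 of 35 lower in HFD), -0.21 for complex III (6 of 8), -0.21 for complex IV (11 of 13) and -0.26 for complex V (12 of 16). At 0 h they were -0.07, -0.03, -0.13 and -0.05 in the same order. Members with an unadjusted p under 0.05 at 24 h included Atp5l, with 15.9 ± 9.4 CPM in HFD and 26.7 ± 2.2 in chow and a log2 fold change of -0.76 ± 0.34 (adjusted p = 0.624), and Ndufs5, with 4.73 ± 0.98 in HFD and 8.06 ± 1.43 in chow (-0.78 ± 0.25, adjusted p = 0.484). Uqcrc1 was the 1 of the 9 with a higher level in HFD, with 136 ± 7.6 CPM against 109 ± 14 in chow (0.31 ± 0.13, adjusted p = 0.61). These genes were chosen for naming after their values were seen.

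The subunit transcripts are short, with a median of 737 bases over the 72 members with an annotated length against 2930 over all genes tested, and differences between libraries went with length. HFD 24 h replicate 3 minus replicate 1 had a Spearman correlation with length of 0.40 across the members (n = 72) and 0.37 across all genes (n = 12363), where genes share libraries and are not independent. The log2 fold change of diet at 24 h correlated with length by 0.56 across the members and 0.11 across all genes, and at 0 h by 0.41 and -0.015. Its median at 24 h was -0.29 in the 36 shorter members and -0.09 in the 36 longer ones, and at 0 h it was -0.18 and -0.01. For LPS the medians were -0.02 and 0.14 in HFD and 0.08 and 0.22 in chow. With an offset for length in each library, the median was 0.01 in HFD and 0.07 in chow for LPS, and -0.11 at 24 h and -0.04 at 0 h for diet. The part of RNA fragmentation or of library preparation in this was not tested.

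**Figure D5:**
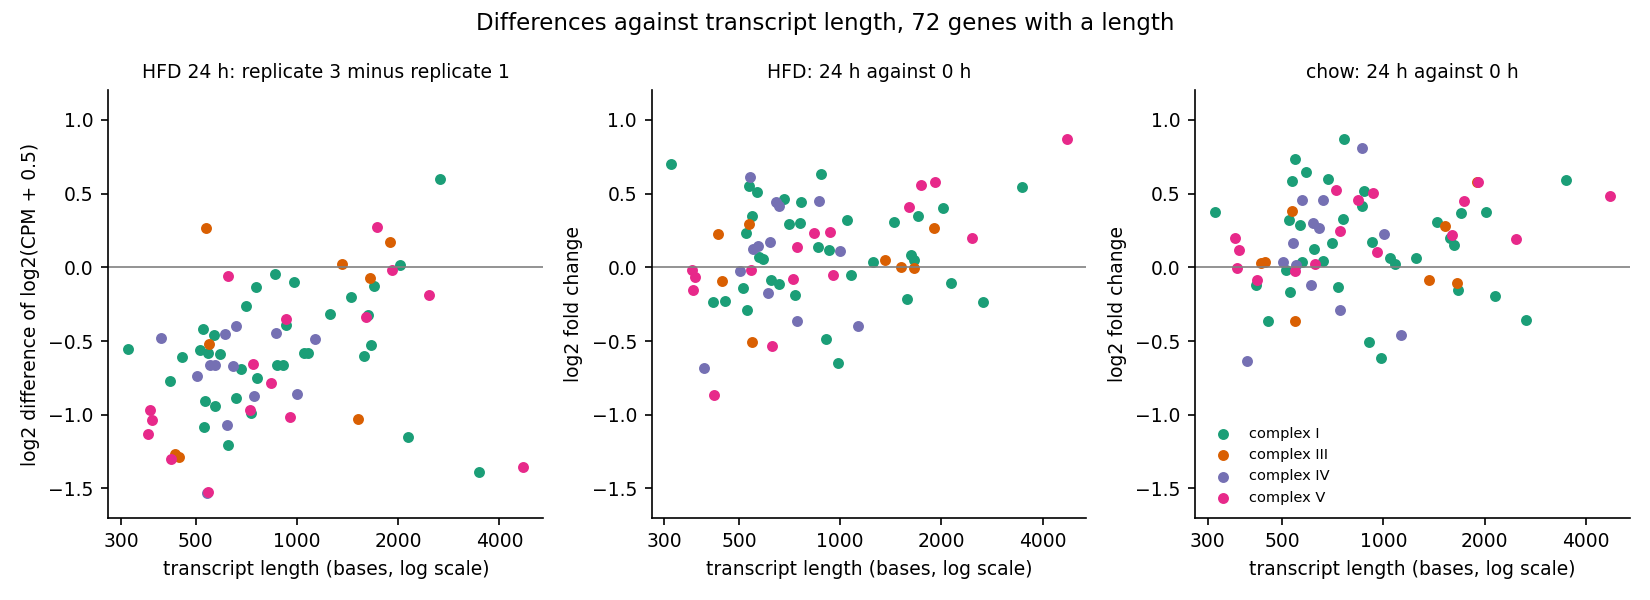
Log2 differences (vertical axes) of the 72 members with an annotated length against transcript length in bases (horizontal axes, log scale), coloured by complex: HFD 24 h replicate 3 minus replicate 1, and the LPS changes in HFD and in chow. In the first panel nearly all members lie below 0, and shorter ones lie lower, with a Spearman correlation of 0.40.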

How the data were processed

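RNA of peritoneal macrophages had been isolated with a Qiagen RNeasy mini kit and made into libraries with the NuGen Ovation Universal kit, as the labels' protocols state. CASAVA 1.8.2 and STAR 2.5.2b with mm10 were used by the authors, per the submitters' processing notes. For the read counter, its annotation and its use of strand the sources used here give nothing, so antisense overlaps cannot be resolved. The authors deposited raw counts for 35745 RefSeq transcripts in 12 libraries, each matched by its name in the labels. Library totals ranged from 2360244 to 20688308 counts.

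Symbols came from RefSeq (GRCm38.p6, 35440 identifiers) and GENCODE (188), and 117 identifiers had none. Each gene was represented by the transcript with the highest mean count. Genes were filtered with filterByExpr and tested with edgeR 4.0.16 (R 4.3.3; TMM, glmQLFit with robust estimation, glmQLFTest) in 1 model of 4 group means over the 12 libraries, with Benjamini-Hochberg adjustment over 12641 genes at 0.05. The SE is the absolute log2 fold change over the square root of F. CPM use TMM-scaled totals, and plots add 0.5 before log2. Copies were found with blastn 2.17.0. A chi-square test of the counts of each pair of libraries within a group found differences beyond sampling noise, and each library was kept as 1 replicate. The code was tested on simulated counts for LPS in chow, where it called 11.9% of log2 changes of 0.5 and 88.1% of those of 1. Changes had been set in 67 genes at 0.5, in 67 at 1 and in 66 at 2, among 12505 genes fitted. In the data 3357 of 12641 genes were called for LPS in chow, and the adjustment is stricter where fewer genes change. The share of changes of 0.5 called at the cutoff of the data was not tested. In chow Atp5d passed at 0.50 and Ndufa5 did not at 0.52, so a gene without a call may have changed by about 0.5.

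Members, lists and tests were chosen with earlier results of these data known. Named with values were, per complex and LPS comparison, up to 3 members with the largest rise and 3 with the largest fall among those that passed, the complex IV isoform genes with their partners, the subunit c genes, the ATPase inhibitor Atpif1, Ndufs1, Ndufs4, Uqcrc1 and Atp5b, and up to 4 genes with the smallest adjusted p per list. Ndufc2, Atp5a1, Cox7c, Ndufs5, Atp5l and Uqcrc1 in the diet comparison were named after their values were seen. Alternatives were median-ratio and upper-quartile factors, no filter, DESeq2 1.42.0, limma-voom (limma 3.58.1), a minimum of 1 CPM in 3 libraries, isoforms summed, only the libraries compared, a replicate block, the lane tag, an offset for transcript length alone and with the block, and each library left out in turn. Leaving out both libraries with the label number 7 was added after the data were seen.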

Additional observations from a re-analysis of the deposited data

How the results depend on the processing

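Of the comparisons' counts and medians, those of diet and of the interaction kept 0 members called under every alternative run (the lane tag could not be fitted at 0 h, where no library has it). With only the libraries of the groups compared, the LPS counts were 4 members in HFD and 19 in chow. Over all genes those fits called 1274 higher and 1216 lower of 12000 in HFD, and 2014 and 1960 of 12261 in chow. Limma-voom and isoforms summed each gave 5 in HFD. Over all genes limma-voom called 1500 higher and 1513 lower of 12641 there, and isoforms summed 1619 and 1457 of 12985. The lane tag gave 5 in chow and moved the medians to -0.29 for LPS in chow and 0.087 for diet at 24 h. The transcript length offset put the chow LPS median at 0.0688. Leaving out each library in turn gave LPS counts of 3 to 13 in HFD and 5 to 16 in chow, LPS medians of -0.04 to 0.27 in HFD and 0.12 to 0.21 in chow, and diet medians of -0.18 to -0.04 at 0 h and -0.37 to -0.03 at 24 h. Of the 12824 to 12914 genes in those fits, 1410 to 1804 were called higher and 1110 to 1569 lower in HFD. In chow the ranges were 1291 to 1949 higher and 1242 to 1869 lower. The replicate block gave 19 of 73 members called in HFD (13 higher, 6 lower) and 17 of 73 in chow (13 and 4). With the length offset it gave 15 in HFD and a median of 0.0623 in chow. Over all 12641 genes the block called 1763 higher and 1634 lower in HFD, and 1906 and 1808 in chow. The block with the length offset called 1926 and 1590 of them in HFD. With the block alone, the share of members called in HFD was thus near that of all genes. With the block Cox7a2 passed in both diets (0.0248 in HFD, 0.0296 in chow), Ndufc2 (0.0151), Ndufb3 (0.0434), Cox7a2l (0.04), Cox4i1 (0.0408) and Atp5g1 (0.00985) in HFD and Ndufa5 (0.0125), Uqcrh (0.0455) and Cox6a1 (0.0355) in chow, and Cycs in chow did not (0.0506). Deviations of libraries with the same label number correlated at 0.30, 0.09 and 0.35 in chow and 0.06, 0.26 and 0.03 in HFD. Those with different numbers correlated at -0.307 to 0.109 in chow and -0.185 to 0.091 in HFD. Most libraries correlated best with their own number, and 3 with another (chow 24 h replicate 2, HFD 0 h replicate 3 and HFD 24 h replicate 1). Upper-quartile factors ended the HFD calls of Cox5a and Ndufc1, limma-voom those of Cox5a, Ndufa5 and Ndufc1, no filter those of Ndufb11, Uqcrh and Atp5e, isoforms summed those of Ndufb11, Ndufc1 and Uqcrh, and fits of only the libraries compared those of Cox5a, Ndufb11, Ndufc1 and Uqcrh. What the label numbers stand for is not given, so they were not taken to pair the samples. The correlations above do not decide whether they do. Direction was not stable for 19 of 86 named changes, none of which passed the test as reported, and 0 of the reversed values passed. With upper-quartile factors the log2 fold change was -0.0203 for Ndufa6 in HFD and -0.042 for Cox8a in chow. With the lane tag the log2 fold change was -0.126 for Ndufa6 in HFD, -0.194 for Ndufc1 in chow, -0.263 for Cox5a in chow, 0.271 for Ndufs1 in chow, -0.143 for Cox6a1 in chow, -0.0841 for Cox6a1 in HFD, -0.577 for Cox6b1 in chow, -0.181 for Cox6b1 in HFD, -0.471 for Cox8a in chow, -0.0568 for Cox8a in HFD, -0.819 for Atp5g1 in chow and -0.387 for Atp5g3 in chow. With the length offset the log2 fold change was -0.0508 for Ndufa6 in HFD and -0.0837 for Cox8a in chow. With the replicate block and length offset the log2 fold change was -0.031 for Ndufa6 in HFD and -0.0975 for Cox8a in chow. With no filter the log2 fold change was 0.0492 for Uqcrc1 in HFD. With limma-voom the log2 fold change was 0.00972 for Uqcrc1 in HFD. With isoforms summed the log2 fold change was 0.000775 for Uqcrc1 in HFD. Without both libraries numbered 7 the log2 fold change was 0.0889 for Uqcrc1 in HFD and 0.212 for Atp5g3 in HFD. Leaving out each library in turn, it spanned -0.105 to 0.24 for Ndufa6 in HFD, -0.201 to 0.104 for Atp5e in chow, -0.167 to 0.00341 for Uqcrc1 in chow, -0.0867 to 0.0551 for Uqcrc1 in HFD, -0.0638 to 0.291 for Cox6a1 in HFD, -0.158 to 0.407 for Cox6b1 in HFD, -0.0633 to 0.16 for Cox8a in chow, -0.0775 to 0.33 for Cox8a in HFD, -0.433 to 0.0517 for Ndufa4 in chow, -0.477 to 0.314 for Ndufa4 in HFD, -0.428 to 0.116 for Atp5g3 in HFD and -0.33 to 0.0198 for Atpif1 in chow. The causes of these shifts were not tested. Limits are the 3 libraries per group, the lane tag shared with LPS in chow, the shallow HFD 0 h replicate 3, reads shared with copies in 23 members, unstated strand, and short transcripts in libraries that differ with length.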

Other observations

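The 4 genes of complex II, which the symbol rule leaves out and which takes electrons from succinate, had 0 calls in either diet. Among all genes 24.6% were called in HFD and 26.6% in chow. The median log2 fold changes of complex II were 0.07 in HFD and 0.04 in chow. Sdha, its catalytic subunit, averaged 165 ± 5.9 CPM in HFD 24 h and 196 ± 8.9 in HFD 0 h (adjusted p = 0.142 by edgeR's test), and 170 ± 17.5 in chow 24 h and 193 ± 10.5 in chow 0 h (adjusted p = 0.301). Cyc1, the cytochrome c1 gene of complex III, averaged 45.5 ± 6.8 CPM in HFD 24 h and 35.7 ± 3.7 in HFD 0 h (adjusted p = 0.241), and 41.9 ± 12.4 in chow 24 h and 37.5 ± 1.5 in chow 0 h (adjusted p = 0.597). Atpif1, the inhibitor of ATP synthase, averaged 124 ± 21.5 CPM in HFD 24 h and 146 ± 21.1 in HFD 0 h (adjusted p = 0.381), and 165 ± 38.4 in chow 24 h and 182 ± 24.1 in chow 0 h (adjusted p = 0.604).

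Of 19 other genes that mark mitochondrial content, 2 rose and 1 fell in each diet, where 24.6% of all genes changed in HFD and 26.6% in chow. Tomm20, a receptor for protein import, had 27.7, 25.0 and 27.8 CPM in HFD 24 h against 35.4, 40.4 and 36.0 in HFD 0 h, and 17.2, 20.5 and 21.3 in chow 24 h against 37.0, 32.4 and 32.8 in chow 0 h. It fell with -0.48 ± 0.14 in HFD (adjusted p = 0.0211) and -0.79 ± 0.14 in chow (adjusted p = 0.000403). The HFD call ended without HFD 0 h replicate 2 (0.0905) or HFD 24 h replicate 2 (0.105) or 3 (0.056), with no filter on low counts (0.088), with only the libraries compared (0.0681) and with the length offset (0.0527). Hspa9, a matrix chaperone, rose with 0.38 ± 0.12 in HFD (adjusted p = 0.0217) and 0.37 ± 0.11 in chow (adjusted p = 0.0243). These calls ended without HFD 0 h replicate 1 (0.0646) or HFD 24 h replicate 2 (0.0582) or 3 (0.0602) in HFD, and without chow 0 h replicate 2 (0.09) or 3 (0.123) or chow 24 h replicate 1 (0.0764) or 3 (0.0516) in chow. Upper-quartile factors ended both (0.0654 in HFD, 0.0643 in chow), and a fit of only the libraries compared ended the HFD call (0.0986). Vdac3, an outer membrane channel, rose in HFD with 0.79 ± 0.23 (adjusted p = 0.0197, and 0.0679 without HFD 24 h replicate 2). Immt, a protein of the cristae junctions, rose in chow with 0.38 ± 0.11 (adjusted p = 0.0183), and this call ended without chow 0 h replicate 1 (0.0573), 2 (0.0528) or 3 (0.0818) or chow 24 h replicate 2 (0.0583). Higd1a, which binds complex IV, rose with 0.91 ± 0.26 in HFD (adjusted p = 0.0142, and 0.0896 without HFD 0 h replicate 2) and 0.69 ± 0.23 in chow (adjusted p = 0.038). Its chow call ended without chow 0 h replicate 1 (0.057), 2 (0.157) or 3 (0.0777) or chow 24 h replicate 1 (0.103) or 2 (0.0651), with upper-quartile factors (0.0582), with isoforms summed (0.0541) and with the length offset (0.0542). With the lane tag the chow calls of Hspa9 (0.0958), Immt (0.106) and Higd1a (0.609) did not pass.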
